A study of Mus musculus with 2 samples.

Results

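Mature migratory dendritic cells are antigen-presenting cells that have switched from sampling a tissue to leaving it for the draining lymph node. Here they were the cells with at least 5 UMIs (unique molecular identifiers, each standing for 1 captured transcript) of Fscn1, Ccl22 and Cacnb3 together and at least 20 UMIs of the MHC class II genes H2-Aa, H2-Ab1, H2-Eb1 and Cd74 together. The rule was applied to barcodes in which 200 or more genes were detected and mitochondrial UMIs did not exceed 15%. It found 74 cells among 12769 kept cells of the wild-type (WT) library and 58 among 6936 kept cells of the library labelled Otud1-/-, or 132 of 19705 cells in all. Because these measured values chose the cells, the levels of the 7 genes, and every contrast of the chosen cells with other cells, are given below as a description without a test.

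The study profiled immune cells from the gingiva of C57BL/6 mice by droplet single-cell RNA sequencing, in work on OTUD1 and periodontitis. OTUD1 is a deubiquitinase, an enzyme that takes ubiquitin off other proteins. There was 1 library from WT mice and 1 from mice labelled Otud1-/-, with no other allele or agent named for either. The number of animals pooled in each library, their age and sex, any treatment of the gums and the part of Otud1 that was deleted are not given in the sources used here.

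When a dendritic cell meets an inflammatory or homeostatic maturation signal, it lowers antigen uptake, displays peptide on MHC molecules, raises costimulatory ligands and gains the chemokine receptor CCR7, which guides it along lymphatic vessels toward CCL19 and CCL21. Fascin, the product of Fscn1, bundles actin in the long dendrites of such cells, and CCL22 attracts T cells that carry CCR4. NF-kB signalling, above all its RelB arm, is closely tied to this switch, which both type 1 (cross-presenting) and type 2 dendritic cells can make.

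The libraries differed in ways that touch every comparison below. With 1 library per genotype no difference has a replicate check, no test was possible, and all 95% intervals cover counting error only. The chosen WT cells had a median of 3305.5 UMIs (range 871 to 78332) and those of the library labelled Otud1-/- a median of 10725 (4325 to 70012), so the same UMI thresholds admitted cells of unequal depth. Of the WT members, 16 had Xist UMIs only, 16 had Y-linked UMIs only, 14 had both and 28 neither. In the library labelled Otud1-/- 46 of 58 members had Y-linked UMIs only and 1 had Xist only. Otud1 itself, whose loss the label states, gave 13 UMIs in 10 WT members (20.3 CPM, the gene's UMIs as a share of all UMIs of the summed cells, scaled to a common total) and 21 UMIs in 16 members of the library labelled Otud1-/- (25.8 CPM), a log2 ratio of 0.34 (-0.72 to 1.46). The transcript was thus not lower in the members of the library labelled Otud1-/-. The deleted part of the gene is not known, and why the transcript was not lower was not tested. The libraries shared 37 cell barcodes, none of them a member.

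Below, paired values are given for the WT library first and the library labelled Otud1-/- second, and "higher" or "lower" without a further reference means in the library labelled Otud1-/- relative to WT.

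The fourth marker, Ccr7, was not used by the rule and was high in the members. Ccr7 stood at 1375 and 1442 CPM in the members, against 153 and 179 CPM in type 1 dendritic cells (41 and 21 cells with at least 3 UMIs of Xcr1 and Clec9a) and 289 and 232 CPM in type 2 dendritic cells (245 and 229 cells with at least 3 UMIs of Cd209a and Clec10a). It was detected in 66 of 74 and 54 of 58 members. Ccr7 is also a gene of naive lymphocytes, and T cells of the same libraries held 401 and 505 CPM, whereas neutrophils held 73.8 and 50.5 CPM. Members were therefore the highest of these sets for Ccr7 in both libraries. Zbtb46, a transcription factor of classical dendritic cells, gave 54.7 and 38.1 CPM in members and at most 4.76 CPM in T cells, and Flt3, the receptor for the dendritic growth factor FLT3L, gave 81.3 and 98.2 CPM.

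Of the genes that the rule did use, Ccl22 stood at 1115 and 1176 CPM, Fscn1 at 513 and 641 CPM and Cacnb3, a calcium channel subunit, at 76.6 and 125 CPM. In type 1 and type 2 dendritic cells these 3 genes did not exceed 13.3 CPM, and in T, B, neutrophil and macrophage cells they did not exceed 10.1 CPM. The members were uneven: Ccl22 was detected in 67 and 46 members, Fscn1 in 47 and 36, and Cacnb3 in 28 and 27. In T cells Ccl22 was detected in 1.07% and 0.478% and Fscn1 in 0.134% and 0.318%, against 90.5% and 79.3% and 63.5% and 62.1% of members. In the genome (mm10, GENCODE M21) Fscn1 is at chromosome 5, 142960343 to 142973185, Ccl22 at chromosome 8, 94745590 to 94751699, Cacnb3 at chromosome 15, 98630840 to 98644529, and Ccr7 at chromosome 11, 99144196 to 99155077.

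**Figure D1:**
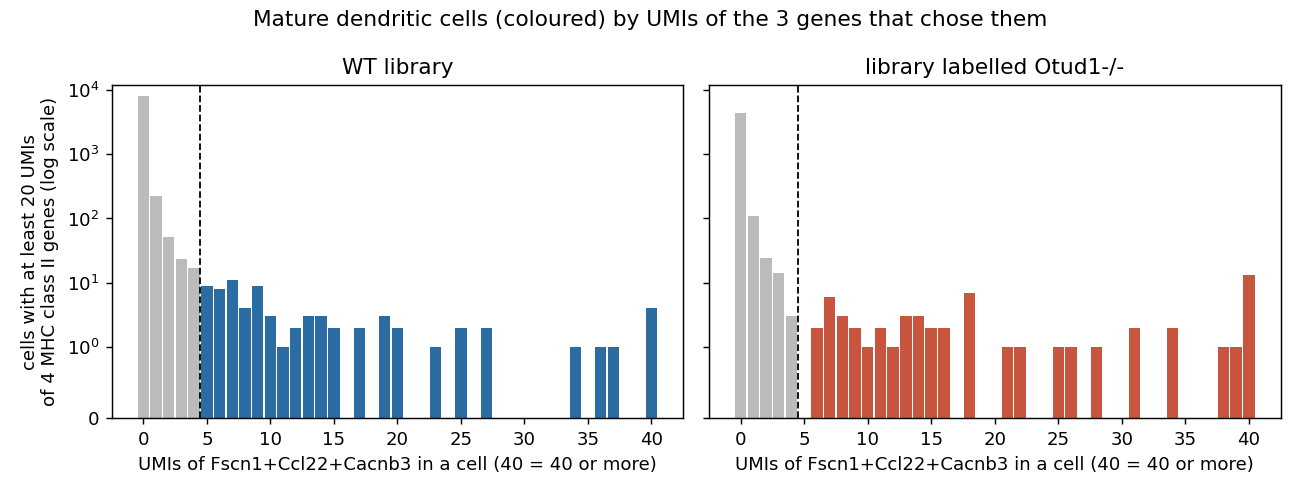
Number of cells (log scale) with at least 20 MHC class II UMIs against their UMIs of Fscn1, Ccl22 and Cacnb3 together, in the WT library (left) and the library labelled Otud1-/- (right); the dashed line is the minimum of 5 UMIs. Most cells hold 0 UMIs of the 3 genes, and the members form a long thin tail with no clear gap at the threshold.

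Cells just inside the threshold were less clearly mature than cells far above it. Among WT cells with enough MHC class II UMIs, Ccr7 stood at 526 CPM in the 40 cells with 3 or 4 UMIs of the 3 genes, just outside the threshold. It stood at 861 CPM in the 28 with 5 to 7, 988 CPM in the 17 with 8 to 11 and 1834 CPM in the 29 with 12 or more. In the library labelled Otud1-/- the corresponding values were 389, 333, 920 and 1907 CPM, in 17, 8, 8 and 42 cells. Its 8 cells just inside the threshold had a median of 16728 UMIs, against 2414 UMIs for the 28 WT cells, so that 5 UMIs were a smaller share of them. Their Ccr7, Il4i1 (87.9 CPM), Socs2 (12.6 CPM) and Ccl17 (6.28 CPM) levels were no higher than in the cells just outside, at 389, 99.4, 13.8 and 38.7 CPM.

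**Figure D2:**
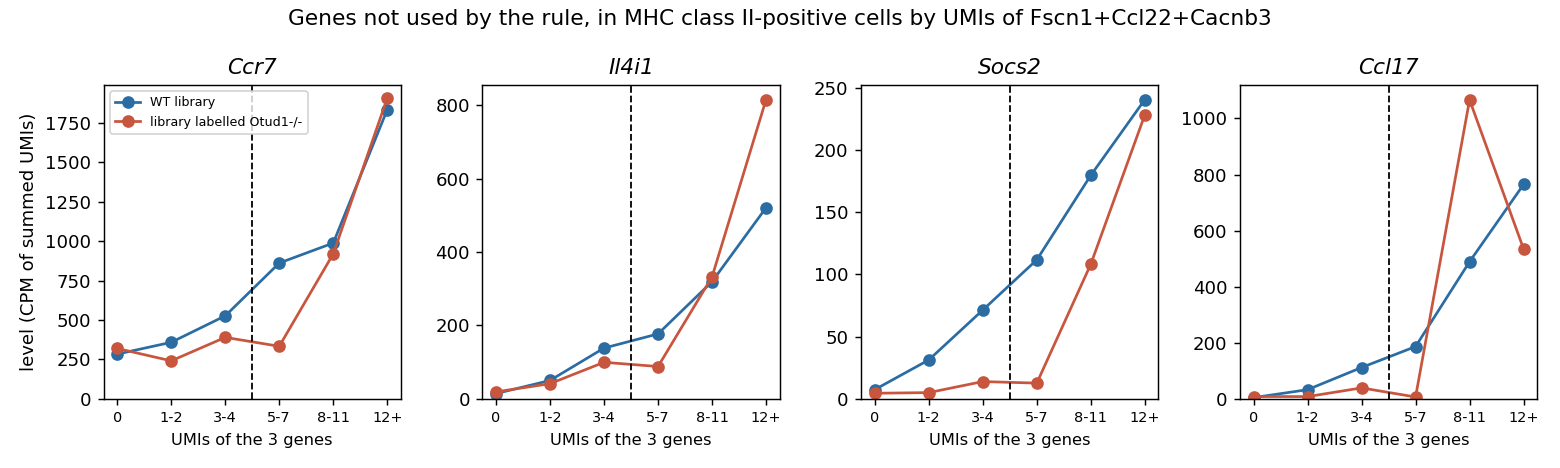
Level (CPM of summed UMIs) of Ccr7, Il4i1, Socs2 and Ccl17 in MHC class II-positive cells grouped by UMIs of Fscn1, Ccl22 and Cacnb3 (x axis), for the WT library (blue) and the library labelled Otud1-/- (red); the dashed line is the threshold. Ccr7, Il4i1 and Socs2 are highest at 12 or more UMIs in both libraries, with Ccr7 at 1834 and 1907 CPM, and the red points at 5 to 7 UMIs lie close to those outside the threshold.

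Members were 0.580% (0.455 to 0.727, exact Clopper-Pearson interval) of kept WT cells and 0.836% (0.636 to 1.08) of kept cells in the library labelled Otud1-/-. The difference was 0.257 percentage points (0.0172 to 0.527, Newcombe interval). It had the opposite sign, -0.393 points (-0.711 to -0.0724), once each cell was thinned to 2000 UMIs and the thresholds were lowered to 2 and 8 UMIs. The thinned counts were 78 of 7249 and 42 of 6145 cells, which were the cells deep enough to be thinned among the 12769 and 6936 kept. A higher share of mature cells in either library could therefore not be told apart from the difference in depth. Among the 3 dendritic sets, members were 20.6% and 18.8%, a difference of -1.72 points (-7.71 to 4.38).

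Some members carried transcripts of another cell type. At least 3 UMIs of B, T or macrophage markers, or 10 of neutrophil markers, were found in 23 of 74 (31.1%) and 21 of 58 (36.2%) members. T cell markers were found in 12 WT members and 2 of the other library, B cell markers in 14 and 13, macrophage markers in 8 and 6, and neutrophil markers in 0 and 5. Summed T cell markers stood at 693 and 57.7 CPM and neutrophil markers at 75.1 and 1357 CPM, so these 2 lists moved in opposite directions between the libraries. In the library labelled Otud1-/- 1 member held 443 of the 1105 neutrophil marker UMIs. Fibroblast markers gave 0 and 2 UMIs. Whether such cells were doublets or cells with free RNA was not tested, and results that depend on them are given without them as well.

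The clearest description of the members came from setting them beside the type 1 and type 2 dendritic cells of the same library. Of 2885 genes with at least 50 CPM in the highest set, 87 (3.02%) were at least 2-fold higher in members than in both other sets in both libraries, and 8 (0.277%) were at least 2-fold lower. Of 44 compared genes of a list of the published mature dendritic programme, which was chosen for the same kind of cell as the rule, 24 were among the higher genes and 0 among the lower.

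Apol7c, a gene of the apolipoprotein L family, had the largest ratios among the genes named outside the rule, ranked by the smallest of its 4 ratios to the other sets. It stood at 441 and 435 CPM in members, with 0 UMIs in type 1 cells of either library, 2 UMIs in WT type 2 cells and 0 in the other type 2 cells. Only 29 and 15 members held any Apol7c. Its high level thus came from a minority of members. Nudt17 (84.4 and 85.9 CPM) and H2-M2, a non-classical MHC class I gene (124 and 71.2 CPM), had at most 3.39 CPM in the other sets. Nudt17 was spread thinly, with 54 and 70 UMIs in 29 and 24 members and at most 6 and 12 UMIs in a member. For H2-M2 the 3 highest members held 54.4% and 82.8% of its UMIs.

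Regulators that restrain T cells or cytokine signals were prominent. Il4i1, a secreted amino acid oxidase that curbs T cells, stood at 374 and 597 CPM in members against 5.09 and 6.38 CPM in type 1 and 21.8 and 27.1 CPM in type 2 cells. Socs2, an inhibitor of cytokine receptor signalling, stood at 188 and 167 CPM against at most 5.96 CPM in either other set. Cd200, a ligand that dampens myeloid cells, stood at 102 and 162 CPM against at most 15.7 CPM. These 3 were the genes past 2-fold among 11 compared regulatory genes. The checkpoint ligand Cd274 (PD-L1) stood at 141 and 183 CPM but did not pass, because type 1 cells of the library labelled Otud1-/- held 102 CPM.

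Among chemokine genes, Ccl17, Ccl5 and Cxcl16 passed 2-fold of 11 compared. Ccl17, which lies near Ccl22 on chromosome 8 (94810453 to 94812036) and encodes another CCR4 ligand, stood at 527 and 516 CPM against 1.70 and 12.8 CPM in type 1 and 35.1 and 66.5 CPM in type 2 cells. Its level rested on few cells, with 25 of 74 and 21 of 58 members positive and 39.8% and 31.9% of its UMIs in the highest member. Cxcl16, the ligand of CXCR6, was broad, in 59 and 55 members at 540 and 665 CPM, against 194 to 308 CPM in the other sets. Of the receptors, Ccr7, Gpr183 (the oxysterol receptor EBI2; 311 and 177 CPM) and Ptger4 (a prostaglandin E2 receptor; 117 and 125 CPM) passed among 16 compared.

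Costimulation separated the members less sharply. Cd40, the receptor for T cell help, passed at 197 and 237 CPM against 20.4 to 81.8 CPM in the other sets and was the only one of 7 compared genes to do so. Cd80 stood at 105 and 135 CPM against 39.0 to 79.1 CPM. Cd83 stood at 737 and 778 CPM against 419 to 614 CPM, and Cd86 at 266 and 405 CPM against 169 to 234 CPM. All 3 were higher in members than in either other set but by less than 2-fold somewhere.

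Few antigen presentation genes passed 2-fold between the members and the other dendritic sets, as was so for genes in general. The MHC class II genes of the rule, whose minimum the other sets also had to meet, stood at 0.88 to 1.26 times their level there. Outside the rule, none of 17 compared genes of MHC class II presentation and processing and 1 of 19 of MHC class I (H2-M2) passed 2-fold. Over all 2885 genes compared, 3.02% passed as higher and 0.277% as lower, so these counts do not set the lists apart. By less than 2-fold somewhere, H2-DMa (0.58 to 0.66 times) and H2-DMb1 (0.44 to 0.71 times) were below both other sets in both libraries. H2-DMb2 was above them, at 1.20 to 2.78 times. Cst3, cystatin C, was higher in type 1 cells (8870 and 10970 CPM) than in members (4785 and 9498 CPM). The uptake receptor Ly75 (DEC-205) was the only one of 20 uptake receptor genes to pass, at 98.5 and 84.7 CPM against 3.97 to 34.0 CPM. None of the 7 cell cycle genes or the 18 immediate early genes passed in either direction, which with so few genes passing in general does not set them apart.

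NF-kB and survival genes were higher in part. Relb stood at 220 and 295 CPM against 53.2 to 99.6 CPM in the other sets, and Birc2 and Traf3, which control the RelB arm, stood at 161 and 195 CPM and at 51.6 and 60.2 CPM. These 3 passed among 20 NF-kB genes. Rel (1229 and 1074 CPM, against 330 to 781 CPM) and Nfkb2 (150 and 174 CPM, against 56.0 to 96.6 CPM) were higher in members as well but missed 2-fold against type 2 cells. Of 13 survival genes, Bcl2a1b, Birc2, Serpinb9 and Serpinb6b passed. Serpinb9, which blocks granzyme B, stood at 342 and 342 CPM against 29.1 to 93.6 CPM. Fabp5, a fatty acid carrier, stood at 973 and 1884 CPM against at most 111 CPM. Zmynd15, Mreg, Anxa3, Cd63, Mfge8, Mmp25 and Prnp completed the 15 genes with the largest ratios.

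**Figure D3:**
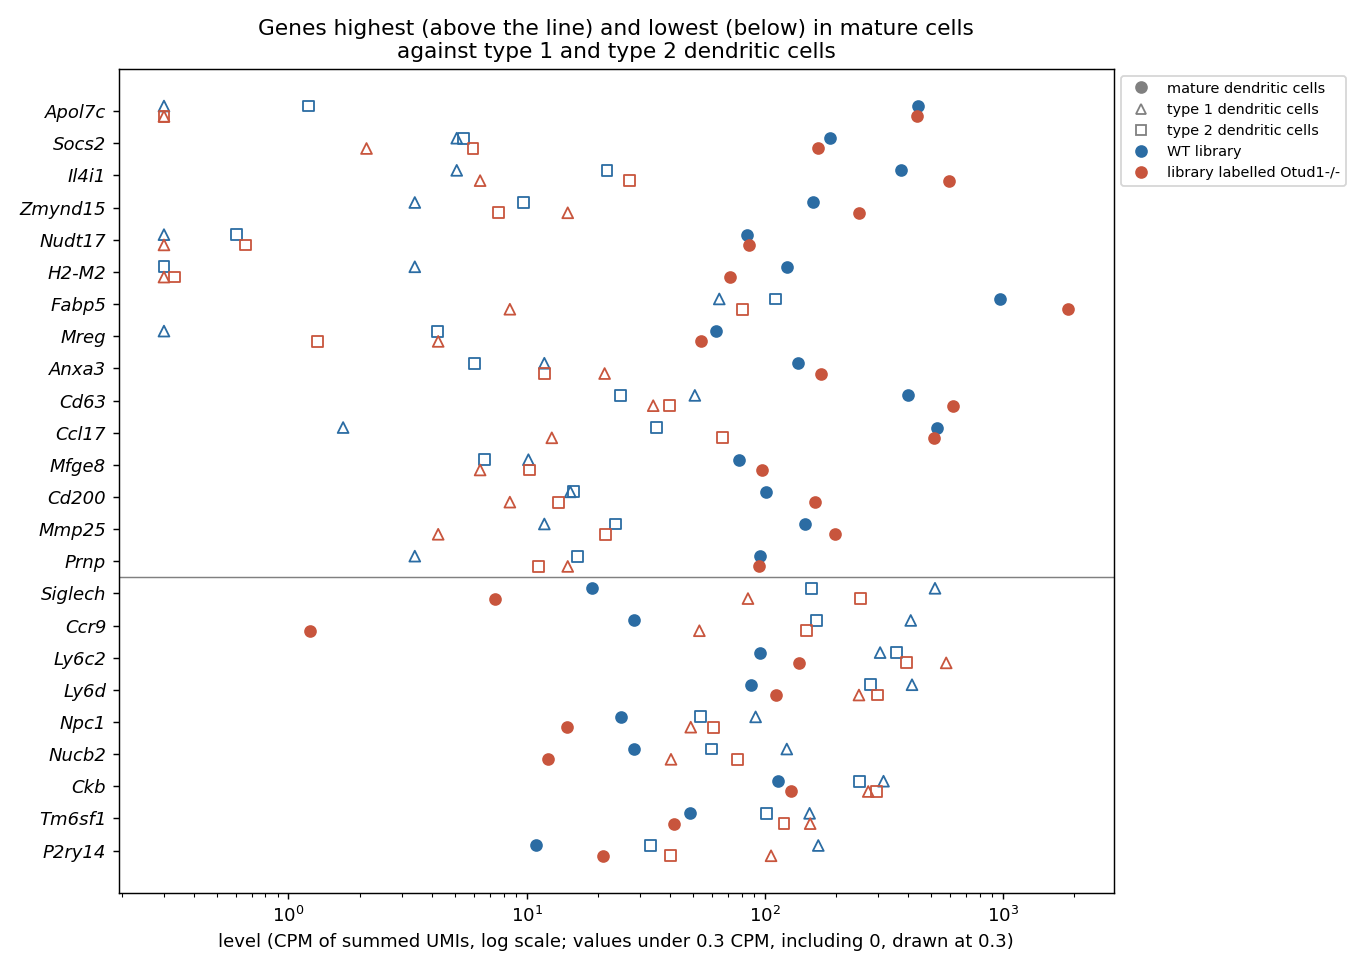
Level (CPM of summed UMIs, log axis) of the 15 genes with the largest and 9 of the 10 with the smallest ratios of mature to other dendritic cells, in mature (filled circles), type 1 (triangles) and type 2 (squares) cells of the WT library (blue) and the library labelled Otud1-/- (red). Filled circles of the upper 15 genes lie right of the open symbols of the same library, from Apol7c at 441 and 435 CPM down to Prnp, and those of the lower 9 lie left of them.

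Of the genes lowest in members, Siglech, a plasmacytoid dendritic cell receptor, stood at 18.8 and 7.37 CPM in members, 519 and 85.1 CPM in type 1 and 158 and 253 CPM in type 2 cells. Ccr9, Ly6d and Ly6c2 were lower in members in the same way, as were Npc1, Nucb2, Ckb, Tm6sf1 and P2ry14. The part of plasmacytoid transcripts in the type 1 and type 2 sets was not tested.

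The promoters of the programme genes were searched for NF-kB motifs, since Relb, Traf3 and Birc2 were among the higher genes. In the 250 bases before the start, taken from RefSeq (GRCm38.p6) for 43 of the 59 listed genes, a loose motif of GGG, any 5 bases and CC, on either strand, was present in 27 genes (62.8%), against 48.7% of 27025 genes. A stricter motif of GGG, any 2 bases and TTTCC, every match of which also matches the loose one, was present in 4 genes (9.30%), against 1.65% of all genes. The 5 matches are shown because 3 of them lie before the NF-kB subunit genes Nfkb2 and Rel themselves. The others lie before Bcl2l1, the survival gene of BCL-XL, and Eno2, an enolase. None of these 4 genes was among the 24 programme genes at least 2-fold higher in members than in both other sets. Nfkb2 and Rel missed 2-fold, and Bcl2l1 and Eno2 did not reach the level needed for that comparison. Sequences are written 5′ to 3′ on the strand of the gene, and capitals mark the motif, which for Rel and Bcl2l1 lies on the opposite strand.

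Nfkb2, site next to the start: ccccctcggggggccgaaaGGGGCTTTCCc
Nfkb2, site before a second start: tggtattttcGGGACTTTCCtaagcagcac
Rel: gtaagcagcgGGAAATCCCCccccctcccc
Bcl2l1: tacgcctctcGGAAAAACCCgggagtggtc
Eno2: ccctgtgggtGGGCTTTTCCacccgtctgg

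In GRCm38.p6 these 30-base windows are at chr19:46304707-46304736 and chr19:46305695-46305724 for Nfkb2 (plus strand), chr11:23771041-23771070 for Rel, chr2:152830916-152830945 for Bcl2l1 and chr6:124769812-124769841 for Eno2 (the last 3 on the minus strand). The motif begins 11 bases before the start of Nfkb2, and 225 bases before another start of it, 91 before that of Rel, 218 before that of Bcl2l1 and 158 before that of Eno2. Bcl2l1 stood at 48.5 and 57.7 CPM in members, and Eno2 was near absent with 4 and 8 UMIs. A match describes the letters of these windows only.

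Members were not uniform. Il12b, the p40 subunit of IL-12 and IL-23, was found in 21 of 74 and 19 of 58 members (28.4% and 32.8%). In T cells it was found in 0 of 745 and 1 of 628. The genes of the partner subunits gave few or no UMIs in members, Il12a 0 and 0 and Il23a 2 and 1. Ccl17 was found in 25 and 21 members, and Il12b and Ccl17 together in 5 and 9. Only 60 of the 74 WT members, and all 58 others, held at least 2000 UMIs. Thinned to 2000 UMIs, Il12b was found in 21.7% and 24.1% and Ccl17 in 26.7% and 22.4% of these members. Type 2 genes (at least 2 UMIs of Cd209a, Clec10a and Mgl2) were found in 19 and 7 members, type 1 genes (Xcr1, Clec9a and Cadm1) in 6 and 6, and both in 2 and 2. Of the WT members with type 2 genes 7 held Ccl17 and 1 held Il12b, and of those with type 1 genes 3 held Il12b and 1 held Ccl17. In the library labelled Otud1-/- the counts were 4 and 1 for type 2 genes and 1 and 3 for type 1 genes. Most members thus showed neither origin's genes, at the depth of these cells.

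Between libraries, Ccr7 was at a similar level, most measured glycolysis genes were higher and several chemokine and type 2 lectin genes were lower in the library labelled Otud1-/-. Of the 3 genes of the rule, Ccl22 and Fscn1 differed by less than 1.5-fold and Cacnb3 by more (0.70, 0.20 to 1.23). Comparison was limited to 2714 genes that averaged 50 CPM or more and had 20 or more UMIs in the higher library. Of these, 253 (9.32%) were higher by a factor of 1.5 or more and 414 (15.3%) were lower by as much, and the median log2 ratio was -0.06. With every gene shifted by TMM scaling (0.16 on the log2 scale) the counts were 424 and 264, and by median-of-ratios scaling (0.21) they were 498 and 224. The direction of this split therefore depended on the scaling. For the gene lists the level required was 20 CPM, which 4821 genes reached. Of these, 10.8% counted as higher and 20.1% as lower, and their median was -0.09. Every list count below is to be read beside these shares, and a count near them does not set its list apart. Many calls depended on the members used. Of the genes in the lists, 57 were higher and 54 lower. Without members holding markers of another type, which left 51 and 37 members, 34 and 33 of them stayed past 1.5-fold in the same direction, and 4 and 9 changed sign. Among the 25 and 34 members with 3000 to 12000 UMIs, 34 and 33 stayed and 11 and 13 changed sign. The medians of these 25 and 34 members were 6181 and 8394 UMIs, so the range narrowed the difference in depth without removing it.

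Ccr7 differed by a log2 ratio of 0.07 (-0.06 to 0.20), Apol7c by -0.02 (-0.25 to 0.21), Ccl17 by -0.03 (-0.24 to 0.18), Socs2 by -0.17 (-0.53 to 0.20) and Tbc1d4 by 0.00 (-0.17 to 0.17). The counting intervals of these 5 genes lay inside a 1.5-fold difference, but they cover counting error only. Over the 12 other settings computed for single genes Ccr7 stayed between -0.05 and 0.28, whereas Socs2 ran from -0.59 to 0.93 and Ccl17 from -1.67 to 0.18. Without members holding markers of another type, Apol7c was at -1.31, Ccl17 at -0.70, Socs2 at -0.59 and Tbc1d4 at -0.22. Of the 48 measured programme genes, 10 (20.8%) were higher and 1 lower (H2-M2), with a median of 0.23. The 10 were Ccl5, Il12b, Cd63, Cd200, Cd86, Il4i1, Bcl2l14, Zmynd15, Traf1 and Ankrd33b. Of the 10, Cd63 and Traf1 stayed past 1.5-fold without members holding markers of another type, where H2-M2 was at 0.61, the opposite direction.

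**Figure D4:**
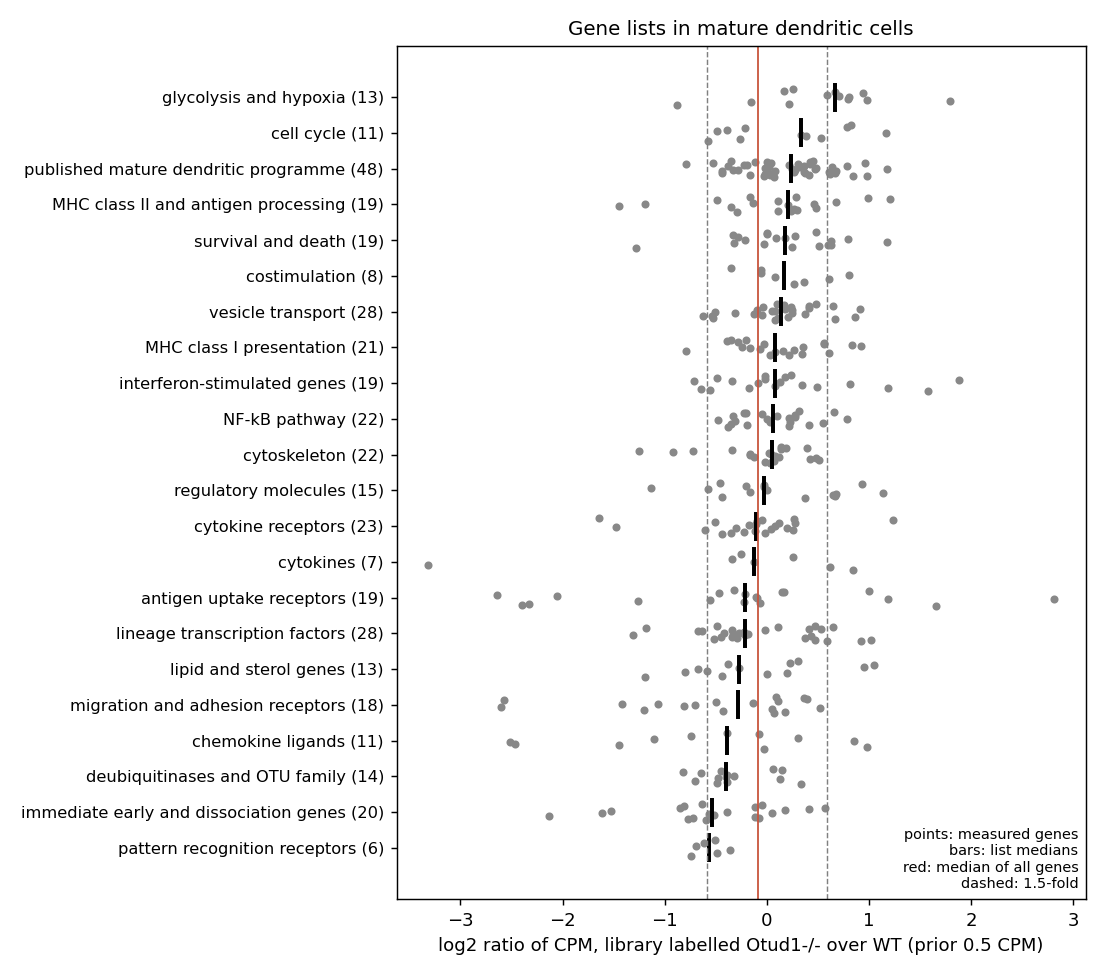
Log2 ratio of CPM, library labelled Otud1-/- over WT, for the measured genes (points) of 22 gene lists in mature dendritic cells, with list medians (bars), the median of all 4821 genes (red line) and 1.5-fold (dashed lines); the number of measured genes is in brackets. Glycolysis lies farthest to the right, with a median of 0.67, and pattern recognition and immediate early genes farthest to the left, with medians of -0.56 and -0.54.

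Genes of glycolysis were the list farthest above the rest. Gapdh stood at 658 CPM in WT members and 1301 CPM in those of the library labelled Otud1-/-, a log2 ratio of 0.98 (0.82 to 1.15). Tpi1 gave 32 and 142 UMIs (1.79, 1.24 to 2.40) and Ldha, which makes lactate, stood at 189 and 363 CPM (0.94, 0.63 to 1.26). Of 13 measured genes 8 were higher (Tpi1, Gapdh, Ldha, Pgam1, Pgk1, Eno1, Slc2a6 and Pkm) and 1 was lower, Hk2, the first enzyme of the path (-0.88, -1.50 to -0.28), with a median of 0.67. The median was between 0.36 and 0.99 in the 14 other settings tried. All 8 stayed past 1.5-fold without members holding markers of another type, whereas Hk2 was at -0.02. Among members with 3000 to 12000 UMIs 3 of the 8 stayed: Gapdh was at 0.71 and Tpi1 at 0.97, and Slc2a6 passed as well, but Ldha was at -0.44, Pgam1 at -0.19 and Eno1 at -0.01.

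Immediate early genes, which can be induced when tissue is dissociated, were the opposite. Of 20 measured, 9 were lower and 0 higher, with a median of -0.54. Atf3 stood at 219 and 71.2 CPM (-1.61, -2.09 to -1.17), and Fos at 263 and 173 CPM (-0.60, -0.94 to -0.27). The list median was below 0 in 9 and above 0 in 5 of the 14 other settings, reaching 0.20 among members with 3000 to 12000 UMIs. In that setting Fos was at 0.21, and Atf3 alone of the 9 stayed past 1.5-fold. Its direction thus depended on which members were used.

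Chemokine ligands split. Ccl5, a chemokine that attracts T cells and monocytes, stood at 682 and 1348 CPM (0.98, 0.82 to 1.15) in 41 and 34 members, and Ccl6 was also higher. Ccl5 is strong in T cells (1751 and 2708 CPM), and without members holding markers of another type its log2 ratio was 0.42. Ccl3, Ccl4, Ccl9, Ccl2 and Cxcl9 were lower, making 2 higher and 5 lower of 11 with a median of -0.39. Ccl4, an inflammatory chemokine, stood at 529 and 92.1 CPM (-2.51, -2.90 to -2.16), and macrophages held 2548 and 2167 CPM. Ccl4 was inside 1.5-fold at 2 other minimums for the 3 genes of the rule, at -0.16 with at least 3 UMIs and -0.52 with at least 10, and at -0.30 with at least 0.1% of a member's UMIs. It stayed lower, at -2.20, without members holding markers of another type, and was at -7.18 among members with 3000 to 12000 UMIs. Cxcl9, a CXCR3 ligand, stood at 536 and 320 CPM (-0.74, -0.98 to -0.51) in only 13 and 11 members, and it was at 0.25 among cells with Y-linked and no Xist UMIs.

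Of 18 measured migration and adhesion receptors 7 were lower and 0 higher, with a median of -0.28. Among all 4821 genes at this level 20.1% were lower and 10.8% higher. Of the 7, 4 stayed past 1.5-fold without members holding markers of another type. Gpr183 stood at 311 and 177 CPM (-0.81, -1.14 to -0.50), but was inside 1.5-fold without those members (-0.36) and among members with 3000 to 12000 UMIs (-0.33). S1pr1, a receptor for the lipid that guides lymphocytes out of lymph nodes, was lower too, at 92.3 and 14.7 CPM. S1pr1 is high in T cells (297 and 315 CPM), whose markers were also lower in the members of the library labelled Otud1-/-. S1pr1 was at -2.02 without members holding markers of another type and at -0.24, inside 1.5-fold, among members with 3000 to 12000 UMIs.

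For T cell stimulation, Cd86 stood at 266 and 405 CPM (0.61, 0.34 to 0.88) and Tnfsf4 (OX40 ligand) was also higher, making 2 of 8 costimulatory genes, with a median of 0.17 and none lower. Neither stayed past 1.5-fold without members holding markers of another type (Cd86 0.46, Tnfsf4 0.33), and Cd86 was at -0.22 among cells with Y-linked and no Xist UMIs. Il4i1 (0.67, 0.45 to 0.90), Cd200, Fas, Socs1 and Axl were the 5 higher of 15 regulatory genes, and Lgals9 was the 1 lower. Socs1 and Axl alone of the 5 stayed past 1.5-fold without members holding markers of another type, and Lgals9 did not. Il4i1 was above 0 in the 12 other settings, between 0.32 and 0.89, but at 0.40 without those members. Cd200 was between -0.18 and 0.99.

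Of 7 measured cytokines 2 were higher and 1 lower. Il12b stood at 270 and 486 CPM (0.84, 0.58 to 1.11), but 33.8% of its UMIs in the library labelled Otud1-/- came from 1 member, and it was at -0.66 among members with 3000 to 12000 UMIs and at 0.46 without members holding markers of another type. Il1b stood at 1387 and 2123 CPM (0.61, 0.50 to 0.73). Neutrophils held 7106 and 6924 CPM of Il1b, and it was detected in 19.2% and 17.4% of T cells, against 37 of 74 and 52 of 58 members. Il1a was lower, at 65.7 and 6.14 CPM, but at 0.03 on the log2 scale in members with at least 10 UMIs of the 3 genes of the rule. The decoy receptor Il1r2 was higher, at 119 and 280 CPM (1.23, 0.86 to 1.63), and was at 1.29 without members holding markers of another type.

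In the NF-kB list, Traf1 (367 and 633 CPM; 0.78, 0.56 to 1.01) and Ikbkb (150 and 237 CPM; 0.66, 0.30 to 1.03) were higher and none of 22 was lower, with a median of 0.06. The 2 higher of 22 were near the share over all 4821 genes at this level, of which 10.8% were higher. Traf1, an adaptor of TNF receptors, was between 0.59 and 1.02 in the 12 other settings. Relb was at 0.42 (0.11 to 0.73), Nfkb2 at 0.22 (-0.17 to 0.60) and Rel at -0.19 (-0.34 to -0.05). The subunits thus lay within 1.5-fold, although Relb passed it, at 0.63, in members with at least 10 UMIs of the 3 genes of the rule. Of the deubiquitinases, which include the NF-kB brake Tnfaip3 (A20; -0.48, -0.78 to -0.19), 3 of 14 were lower and 0 higher, with a median of -0.40. This count is near the share over all 4821 genes at this level, of which 20.1% were lower. The list median ran from -0.70 to 0.22 over the 14 other settings. Usp25 alone of the 3 lower deubiquitinases stayed past 1.5-fold without members holding markers of another type, and Tnfaip3 was then at 0.29.

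Among MHC class II and processing genes outside the rule, Cst3 (4785 and 9498 CPM; 0.99, 0.93 to 1.05), Ifi30 (1029 and 1643 CPM; 0.67, 0.54 to 0.81) and Cd1d1 were higher, and the cathepsin genes Ctsb (344 and 150 CPM; -1.20, -1.53 to -0.87) and Ctsl were lower, of 19. Without members holding markers of another type none of the 3 higher genes stayed past 1.5-fold (Cst3 0.50, Ifi30 0.40 and Cd1d1 0.15). Ctsb then stayed lower (-0.90) and Ctsl was at 0.66, the opposite direction. The list median was 0.21 and was above 0 in the 14 other settings. For comparison, 10.8% of all 4821 genes at this level were higher and 20.1% lower. IFI30 is a thiol reductase that unfolds antigen in lysosomes. The rule's own genes H2-Aa, H2-Ab1, H2-Eb1 and Cd74 stood between 0.09 and 0.15.

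For MHC class I, 3 of 21 were higher, against 10.8% of all 4821 genes at this level. They were the immunoproteasome subunits Psmb8 (585 and 1105 CPM; 0.92, 0.74 to 1.10) and Psmb9 (203 and 362 CPM; 0.83, 0.53 to 1.14) and H2-Q6, and H2-M2 was lower. The 3 stayed past 1.5-fold without members holding markers of another type and among members with 3000 to 12000 UMIs, but H2-M2 was then at 0.61 and 0.14. H2-K1 (0.03, -0.08 to 0.15) and B2m (-0.07, -0.16 to 0.02) had counting intervals inside 1.5-fold. The H2-Q genes are near-identical copies and their reads may be split between them. Of 19 interferon-stimulated genes 4 were higher (Isg15, Irf7, Gbp2 and Ifi205) and 2 lower, with a median of 0.08. Isg15 stood at 106 and 319 CPM (1.58, 1.20 to 1.99), and neutrophils, whose markers were also higher in these members, held 653 and 776 CPM of it. Isg15 was at 1.86 without members holding markers of another type, whereas Irf7 was at 0.16 and Gbp2 at -0.76.

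Genes of dendritic lineage differed in opposite directions. The type 2 lectins Cd209a (119 and 22.1 CPM; -2.40, -3.26 to -1.67), Mgl2 (217 and 34.4 CPM; -2.64, -3.30 to -2.07) and Clec10a were lower, as was the macrophage receptor Mrc1. Xcr1 (10.9 and 35.6 CPM), a type 1 receptor, was higher, but 93.1% of its 29 UMIs in the library labelled Otud1-/- were in 3 members. Without members holding markers of another type Cd209a was at -2.10, Mgl2 at -2.60 and Xcr1 at -0.13. Batf3 (46.9 and 95.7 CPM; 1.02, 0.40 to 1.69) and Irf8 (255 and 484 CPM; 0.92, 0.66 to 1.20), transcription factors of type 1 cells, were among 4 higher and 4 lower of 28. Over all 4821 genes at this level 10.8% were higher and 20.1% lower. Irf4, a type 2 marker, was also among the 4 higher (43.8 and 66.3 CPM; 0.59, -0.09 to 1.31). Irf4 was at 2.84 without members holding markers of another type and at -0.31 with at least 10 UMIs of the 3 genes of the rule. Without members holding markers of another type Irf8 was at -0.06 and Batf3 at 0.18. The type 2 lectins were thus lower with and without those members, while Xcr1, Irf8 and Batf3 passed 1.5-fold only with them.

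The remaining lists are given beside shares of 10.8% higher and 20.1% lower over all 4821 genes at this level. Survival and death genes had 5 higher and 1 lower of 19 (median 0.18), with Bcl2a1b at 943 and 1458 CPM (0.63, 0.49 to 0.77). Bbc3 alone of the 5 stayed past 1.5-fold without members holding markers of another type, and Bcl2a1b was then at 0.42. Bcl2a1b shares near-identical sequence with Bcl2a1a and Bcl2a1d, and reads may be split between them. Vesicle transport genes had 4 higher (Sec61b, Sar1b, Rab11a and Vamp8) and 1 lower of 28 (median 0.14), and the cytoskeleton list had 0 higher and 3 lower of 22 (median 0.05). Lipid genes had 2 higher and 3 lower of 13 (median -0.27), with Fabp5 at 0.95 (0.82 to 1.09) but between 0.00 and 1.17 over the settings. Pattern recognition receptors had 0 higher and 3 lower of 6 (median -0.56), antigen uptake receptors 4 and 5 of 19 (-0.22), cytokine receptors 1 and 3 of 23 (-0.10) and cell cycle genes 3 and 0 of 11 (0.34). The cell cycle median ran from -1.67 to 1.61 over the 14 other settings and was below 0 in 6 of them. Of the 3 higher cell cycle genes, 2 changed sign with at least 10 UMIs of the 3 genes of the rule. Of the 3 lower pattern recognition receptors, 2 changed sign without members holding markers of another type. Clec4d and Clec4e, among the 4 higher uptake receptors, were under 10% of their level in another cell type of the same library.

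The genes with the largest ratios mostly rested on few cells. Slpi (3 and 412 UMIs), Jchain (37 and 2412), Ly6i (8 and 90), Txndc5 (10 and 72) and Gzma (13 and 72) were the 5 highest. In the library labelled Otud1-/- 1 member held 302 of the Slpi UMIs, 1 held 2346 of the Jchain UMIs and 1 held 71 of the Gzma UMIs. Serpinb1a, Ifi205, Tpi1, Mrpl38, Mif, Mzb1 and Hist1h2bc made up the 12 highest. Of these Mrpl38 (21 and 93 UMIs; 1.78, 1.10 to 2.56), a mitochondrial ribosomal protein, and Mif (89 and 359 UMIs; 1.66, 1.32 to 2.01), a cytokine, were broader, in 15 and 32 and in 31 and 40 members.

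At the other end, the macrophage genes C1qa (257 and 17 UMIs; -4.23, -5.07 to -3.56), C1qc, Maf and C1qb were the 4 lowest, and 3 WT members held 95.7% of C1qa. Grap2, Cd3d, Lef1 and Ms4a4b, genes of T cells, were also among the 12 lowest, with Emp1, Mgl2 and Mmp12. Cd3d (75 and 11 UMIs) was found in 16 and 5 members. C1qa, C1qb, C1qc and Cd3d are themselves among the macrophage and T cell markers used above. Without members holding markers of another type C1qa was at -6.22, Maf at -2.07, Grap2 at -3.00, Cd3d at -2.81 and Lef1 at -2.34. The other genes named here also stayed below 0, except Mmp12 at 6.28. The part of T cells and macrophages in these genes was not tested.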

How the data were processed

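The authors deposited unnormalised counts of UMIs for each gene in each barcode. The file headers name Cell Ranger 6.0.1, while the submitters' processing notes name Cell Ranger 5.0.0, Seurat 3.2.3 and the mm10 build. Depth was 639502 UMIs over the 74 WT members and 814597 over the 58 members labelled Otud1-/-. Counts were summed over members per library, scaled to CPM, and compared as a log2 ratio with a prior of 0.5 CPM and an exact conditional binomial 95% interval. Levels carry exact Poisson intervals. PCR copies were already collapsed to UMIs, and intervals cover counting error only. Python 3.11.15, scipy 1.17.1 and, for TMM factors, edgeR 4.0.16 were used, and the scripts were tested on simulated data.

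Members, gene lists and the sets compared with were chosen with earlier results of these data known. Named genes were the 12 highest and 12 lowest ratios between libraries and the 15 highest and 10 lowest against the other dendritic sets, leaving out the 7 rule genes, sex-linked, receptor-segment, ribosomal, mitochondrial and predicted genes, and genes under 10% of their level in another cell type. Members of the 22 lists could also be named. A few genes that these rules pick are not reported here. The type 1 and type 2 sets required the MHC class II minimum, and type 2 cells had under 5 UMIs of C1q genes. Cells of other types were set aside by summed markers: T cells by 3 UMIs of Cd3 genes and Trac without B cell markers, B cells by 5 UMIs of Cd79a, Cd79b and Ms4a1, neutrophils by 100 UMIs of S100a8 and S100a9, and macrophages by 10 UMIs of C1q genes. No doublet caller was run; members with another type's markers were left out as an alternative. Other settings changed the thresholds, scaling, minimum level, prior and sets of members.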

Additional observations from a re-analysis of the deposited data

How the results depend on the processing

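No paired analysis was possible because each genotype had 1 library. Depth limits the report: members were few and WT members shallow, so a gene at 20 CPM rests on about 13 WT and 16 other UMIs. The difference in the share of kept cells was -0.3925 points after thinning and above 0 in the other 6 settings. Its interval included 0 at 3 UMIs of the 3 genes (-0.0931 to 0.499) and without members holding another type's markers (-0.0585 to 0.357). It also included 0 at a minimum of 0.1% of UMIs (-0.0840 to 0.356). The difference in the share of dendritic sets was 5.01 points at 10 UMIs of the 3 genes. The minimum share of 0.1% of UMIs, and all other settings of the comparison between dendritic sets, were chosen after seeing the data.

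Against 253 higher and 414 lower genes between libraries, there were 424 and 264 with TMM factors, 498 and 224 with median-of-ratios factors, 423 and 193 among members with 3000 to 12000 UMIs, 141 and 143 at a doubled minimum level, and 2677 and 4318 with no minimum. Higher genes numbered 156 at 3 UMIs of the 3 genes and 503 in cells with Y-linked and no Xist UMIs. Lower genes numbered 654 at 10 UMIs of the 3 genes, 256 without members holding another type's markers and 269 without each gene's highest member. Against 87 higher and 8 lower genes between dendritic sets, there were 139 and 32 at 10 UMIs, 199 and 95 without members holding another type's markers, and 190 and 68 at 0.1% of UMIs.

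Of the list medians 284 of 308 stayed within their spread and 24 moved. Among 57 genes computed in every setting, 15 that were past 1.5-fold changed sign, in 17 values; genes of the lists outside these 57 changed sign too, as counted above for 2 settings. Without members holding another type's markers Mzb1 was at -3.52, Mmp12 at 6.28 and Irf8 at -0.05776. In cells with Y-linked and no Xist UMIs Maf was at 4.39, Cxcl9 at 0.25, Cd86 at -0.22, Cd200 at -0.18 and Batf3 at -0.10. Among members with 3000 to 12000 UMIs Lef1 was at 5.15, Il12b at -0.66 and Ldha at -0.44. At 0.1% of UMIs Jchain was at -3.56, Txndc5 at -0.42, Mzb1 at -2.55 and C1qb at 0.36. Gzma was at -3.68 with at most 5% mitochondrial UMIs and at -1.59 without its highest member. Fewer cells entered each of these settings, and the cause was not tested.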
